A study of Sus scrofa with 4 samples.

Results

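The DEAD and DEAH box helicases of the 4-cell porcine embryo are described here, as the 52 genes whose name starts with DDX or DHX followed by a digit, of 25560 gene names in the table. DDX58 was left out by the same choice of names. The 52 genes are spread over 84 transcript rows, 6 of them listed at 0 in all libraries, and 19 genes have more than 1 row. The sequenced RNA came from pig (Sus scrofa) embryos at the 4-cell stage, injected in the cytoplasm with a small interfering RNA. The genotype labels read TFAP2C KD for 2 libraries and Control for 2 libraries, and only the first carry siRNA injection as their treatment label. The control's treatment label reads Control, although the injection protocol is given for all libraries, and strain, the number of embryos per library and whether the embryos of a group were pooled are not given in the labels. Each p-value below rests on the spread between these 4 libraries, and that spread may be technical.

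DEAD and DEAH box proteins use ATP to open RNA duplexes or to strip proteins from RNA, and most RNA processing steps have a dedicated member. In the oocyte and cleavage embryo, DDX6 packs stored messenger RNA with translational repressors, and DDX4 (VASA) marks germ cells and their granules. A large set of nucleolar members strips assembly factors and small nucleolar RNAs from ribosome precursors, a process that starts in earnest when the embryonic genome becomes active. Other members drive the spliceosome through its cycle, carry messenger RNA to the pore, or start translation on structured leaders.

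Values are given for libraries 1 and 2 of a label, in that order. They are FPKM, fragments scaled to transcript length and library size, summed over the transcripts of a gene. Deposited coverage divided by deposited FPKM, which would be the aligned gigabases if FPKM was computed as StringTie does, was 6.07 and 8.83 in labelled knockdowns, against 6.69 and 7.03 in labelled controls. The row of the targeted gene TFAP2C did not carry the ratios of its own columns: it had 6.69 and 7.03 under labelled knockdowns, against 6.07 and 8.83 under labelled controls. TFAP2C was listed at 0.448 and 3.11 FPKM under labelled knockdowns, against 14.7 and 7.78 FPKM under labelled controls, but by those ratios the lower values carry the constants of the labelled control libraries and the higher ones those of the labelled knockdowns. The targeted gene thus cannot serve as a check, so libraries go by the names labelled knockdown and labelled control, and every direction is as labelled. Mitochondrially encoded transcripts made up 45.8% and 31.9% of TPM in labelled knockdowns, against 21.7% and 29.1% in labelled controls. The 12 oocyte and early embryo markers, all above 0, summed to 1876 and 2305 FPKM in labelled knockdowns, against 4446 and 4171 FPKM in labelled controls. Of 20 cumulus and granulosa cell markers 16 were in the table, with PTGS2 and AMH at 0 in all libraries, and they summed to 20.6 and 13.6 FPKM in labelled knockdowns, against 19.8 and 12.3 FPKM in labelled controls. The 3 sperm markers in the table summed to at most 0.584 FPKM and the 3 blood cell markers to at most 0.727 FPKM. The part of mitochondrial share and oocyte RNA in the helicase differences was not tested.

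Helicase RNA was dominated by a few genes. The 52 genes summed to 1139 and 1093 FPKM in labelled knockdowns, against 1097 and 1023 FPKM in labelled controls. As a share of all TPM this was 0.173% and 0.199% in labelled knockdowns, against 0.224% and 0.206% in labelled controls. Without the mitochondrially encoded transcripts in the total, the shares were 0.320% and 0.292% in labelled knockdowns, against 0.286% and 0.290% in labelled controls. The order of these shares between the groups thus depended on whether mitochondrial RNA was counted. The median member stood at 3.74 and 3.04 FPKM in labelled knockdowns, against 2.57 and 2.37 FPKM in labelled controls. Between 40 and 43 of the 52 genes reached 1 FPKM in a library.

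**Figure D1:**
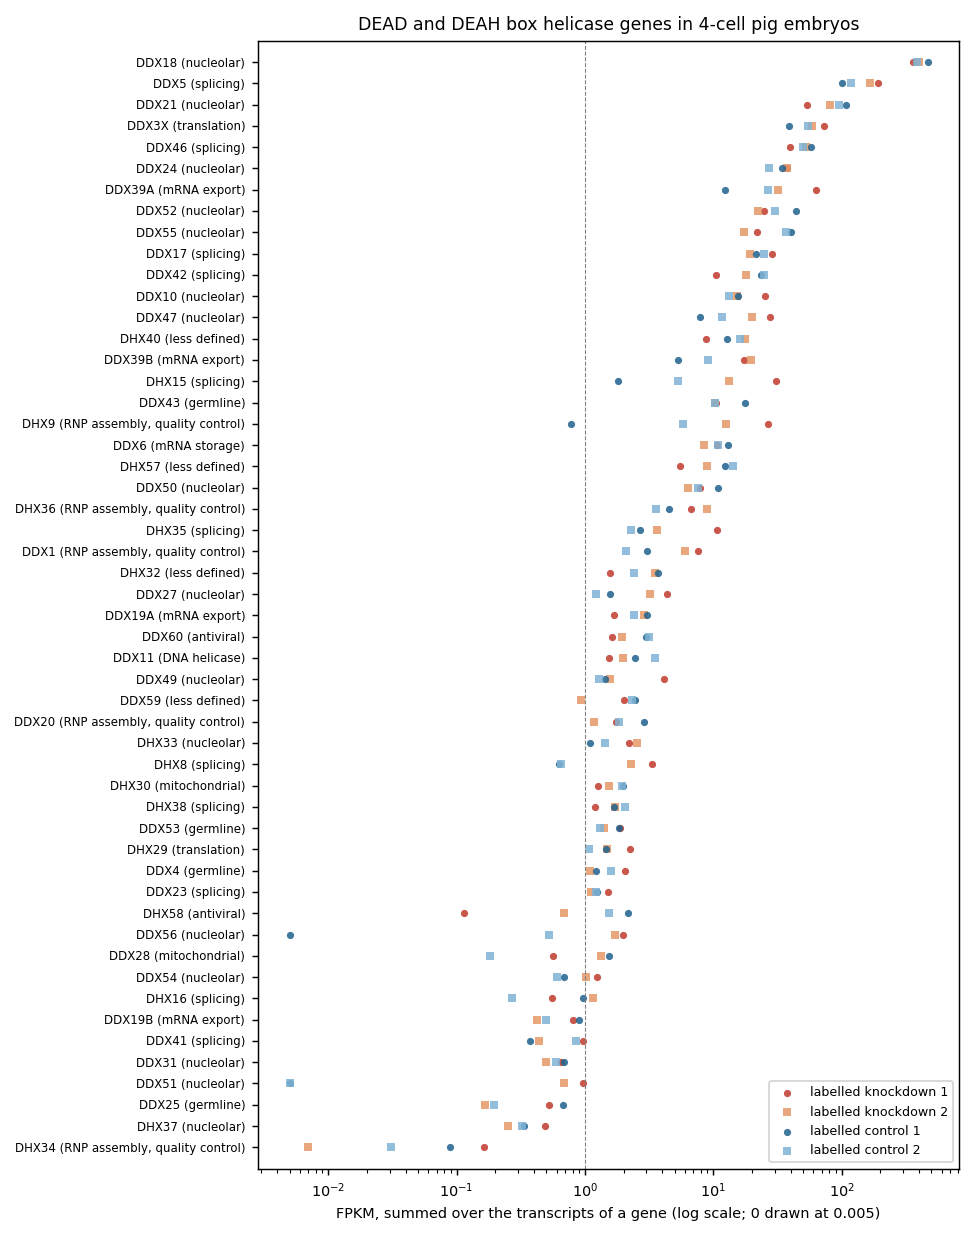
FPKM (log axis, values of 0 drawn at 0.005) of all 52 helicase genes in each library, sorted by the mean over libraries, with the role of each gene in brackets; the dashed line marks 1 FPKM. DDX18 stands alone at the top in all 4 libraries, DDX6 lies in the middle and DDX4 near 1 FPKM, and the widest spread between libraries among well expressed genes is that of DHX9 and DHX15.

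DDX18, which acts in the nucleolus on precursors of the large ribosomal subunit (chromosome 15, 23425674 to 23442985, Sscrofa11.1), was the most abundant helicase in every library. It stood at 357 and 397 FPKM in labelled knockdowns, against 467 and 387 FPKM in labelled controls. The groups overlapped, and its lowest value lay above the highest value of every other helicase. It ranked 128 and 116 among the 25560 genes in labelled knockdowns, against 105 and 133 in labelled controls. DDX18 alone made up 31.3% and 36.4% of the helicase sum in labelled knockdowns, against 42.6% and 37.9% in labelled controls.

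DDX6, the storage helicase (chromosome 9, 46025616 to 46063836), was a mid-level member, 19th of 52 by mean. It stood at 10.6 and 8.48 FPKM in labelled knockdowns, against 13.1 and 10.9 FPKM in labelled controls. All of its FPKM came from 1 of 3 transcript rows, and the other rows were at 0 in all libraries. Both labelled knockdowns lay below both labelled controls in FPKM, but by little: the log2 fold change was -0.31 (SE 0.29, 95% interval -1.01 to 0.40), short of the threshold (Benjamini-Hochberg adjusted p = 0.514, limma). The size of the difference depended on the scaling, with a log2 fold change for DDX6 of -0.59 with TPM and -0.17 after median-ratio scaling. Its neighbours in the order, DHX9 and DHX57, had ranges that overlapped its own. In bulk libraries a lower level per cell and a smaller share of cells holding the RNA cannot be told apart, here or for any gene below.

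DDX4, the germline helicase (gene ID 431672, chromosome 16, 34879701 to 34983701), was near the lower limit of the test, 39th of 52 by mean. It stood at 2.06 and 1.09 FPKM in labelled knockdowns, against 1.21 and 1.59 FPKM in labelled controls. The groups overlapped, and the log2 fold change was 0.08 (SE 0.32, 95% interval -0.71 to 0.87; Benjamini-Hochberg adjusted p = 0.894, limma). Its sign turned with TPM, with the highest transcript row alone, and without labelled knockdown 1 or labelled control 1. The row that carried DDX4 also differed by library: XM_021076578.1 was above 0 in all libraries, at 0.647 to 1.59 FPKM, while XM_021076581.1 was listed at 1.41 and 0 FPKM in labelled knockdowns, against 0.394 and 0 FPKM in labelled controls. The read depth behind the first row was 3.93 and 9.66 reads per base in labelled knockdowns, against 5.48 and 11.2 in labelled controls.

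Per unit of transcript length, DDX18, DDX6 and DDX4 kept the same order in every library. DDX18 exceeded DDX6 by 33.6 and 46.9 times in labelled knockdowns, against 35.6 and 35.4 times in labelled controls. DDX6 exceeded DDX4 by 5.16 and 7.75 times in labelled knockdowns, against 10.8 and 6.87 times in labelled controls. The roles themselves were not ordered in this way, since some nucleolar members lay below DDX6, and the germline members were not uniformly low. DDX43, known in human as a cancer and testis antigen, was the most abundant of them, at 10.5 and 10.3 FPKM in labelled knockdowns, against 17.6 and 10.3 FPKM in labelled controls, close to the level of DDX6. Labelled control 1 was the high library, and the log2 fold change of -0.35 (SE 0.34) lost its sign without it. DDX53, an X-linked gene of the same type, stood at 1.88 and 1.41 FPKM in labelled knockdowns, against 1.84 and 1.30 FPKM in labelled controls. DDX25, which in mouse serves messenger RNA export in spermatids, averaged under 1 FPKM and was not tested.

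The comparison of labelled knockdown with labelled control asks which helicase transcripts differ where TFAP2C is targeted. None of the 42 helicases with a mean of at least 1 FPKM passed the threshold in either direction (limma with Benjamini-Hochberg adjustment over 9850 genes), where 5.11% of all tested genes were called higher and 1.46% lower. With TPM in place of FPKM the calls over all genes were 452 higher and 268 lower, where FPKM gave 503 and 144. The smallest adjusted p among the 42 was 0.0643, for DHX15. At an unadjusted p under 0.05, 11 helicases were higher and 3 lower, beside 14.0% and 13.9% of all tested genes. Fold changes were positive for 22 and negative for 20 members, with a median of 0.03 on the log2 scale, beside a median of -0.13 over all tested genes. The median over all tested genes was -0.39 with TPM and -0.01 after median-ratio scaling, and that of the helicases was -0.21 and 0.13. The groups did not overlap for 17 members that were higher and 12 that were lower, where 24.7% and 35.8% of all tested genes showed this. The 42 genes are those that passed the filter on low values, and DDX56, DHX58 and DHX8 passed it with means of 1.05, 1.13 and 1.71 FPKM through the group where they were high.

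**Figure D2:**
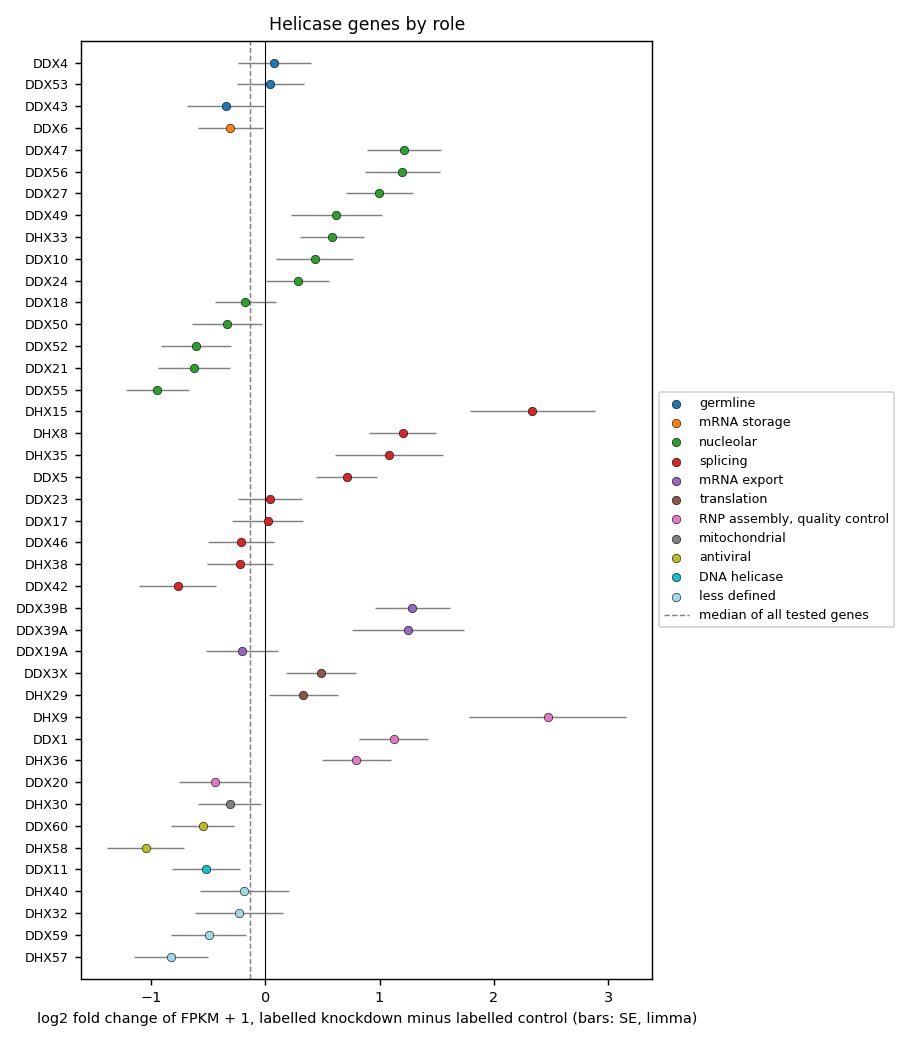
Log2 fold change of FPKM + 1, labelled knockdown minus labelled control, for the 42 tested helicases, with bars for the standard error from limma; colours give the role, and the dashed line is the median of all tested genes at -0.13. DHX9 and DHX15 lie farthest to the right, nucleolar members lie on both sides of 0, and the 4 members of less defined function lie left of it, where DHX40 and DHX32 change side without labelled knockdown 1.

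DHX9 and DHX15 had the largest differences on the log2(FPKM + 1) scale, while by the ratio of group means DDX56 at 6.998 lay above DHX15 at 6.16 and DHX9 at 5.91. DHX9, RNA helicase A, which unwinds double-stranded RNA and RNA-DNA hybrids (chromosome 9, 124141929 to 124183838), stood at 26.5 and 12.6 FPKM in labelled knockdowns, against 0.783 and 5.83 FPKM in labelled controls. Both labelled knockdowns lay above both labelled controls, with labelled control 1 far below labelled control 2. The log2 fold change was 2.47 (SE 0.69; Benjamini-Hochberg adjusted p = 0.0915, limma). DHX15, which takes spent spliceosomes apart and also serves ribosome assembly (chromosome 8, 18563808 to 18620892), stood at 30.6 and 13.3 FPKM in labelled knockdowns, against 1.81 and 5.33 FPKM in labelled controls. Labelled knockdown 1 was the highest and labelled control 1 the lowest library, as for DHX9. Its log2 fold change was 2.34 (SE 0.55, adjusted p = 0.0643 by the same limma test). Without labelled control 2 both genes passed the threshold, with log2 fold changes of 3.44 for DHX9 and 2.92 for DHX15 (Benjamini-Hochberg adjusted p = 0.0143 and 0.0306, limma). That fit leaves labelled control 1, the lowest library for both genes, as the only control, so the spread comes from the labelled knockdowns alone and the lone control is assumed to vary like them. Without labelled control 1 the log2 fold changes were 1.502 for DHX9 and 1.75 for DHX15, and in this and the other leave-one-out fits neither passed.

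The nucleolar helicases did not share a direction. Of 16 members 12 were tested, 7 on the positive and 5 on the negative side, and the median log2 fold change was 0.36. That median was 0.09 with TPM, 0.10 without labelled knockdown 1 and -0.25 among members with a mean of at least 5 FPKM. The sum of the 16 stood at 571 and 609 FPKM in labelled knockdowns, against 734 and 616 FPKM in labelled controls. Both labelled knockdowns thus lay below both labelled controls in FPKM, but labelled knockdown 2 and labelled control 2 were nearly equal. Whether this order of the sums holds under other scalings was not tested. The log2 fold change of DDX18, the largest part of the sum, was -0.17 with FPKM, -0.02 after median-ratio scaling and -0.46 with TPM. Without DDX18 the sum was 214 and 212 FPKM in labelled knockdowns, against 268 and 229 FPKM in labelled controls. The 16 genes made up 50.2% and 55.8% of all helicase FPKM in labelled knockdowns, against 67.0% and 60.2% in labelled controls.

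On the negative side, DDX55, which works on the large subunit precursor (chromosome 14, 29368018 to 29388785), had the tightest separation. It stood at 21.7 and 17.4 FPKM in labelled knockdowns, against 40.0 and 36.8 FPKM in labelled controls, and its log2 fold change was -0.95 (SE 0.28; Benjamini-Hochberg adjusted p = 0.0987, limma). DDX21, which links ribosomal RNA transcription with its processing, stood at 53.6 and 81.2 FPKM in labelled knockdowns, against 109 and 96.0 FPKM in labelled controls. DDX52, of the small subunit pathway, stood at 25.0 and 22.4 FPKM in labelled knockdowns, against 44.1 and 30.2 FPKM in labelled controls. In each of these genes the groups did not overlap. DDX50, a close relative of DDX21 that lies 8988 bases from it on chromosome 14, stood at 7.82 and 6.31 FPKM in labelled knockdowns, against 10.8 and 7.65 FPKM in labelled controls. DDX21 was 6.86 and 12.9 times as abundant as DDX50 in labelled knockdowns, against 10.03 and 12.6 times in labelled controls. How reads were split between the pair is not recorded in the table.

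On the positive side, DDX47, of early ribosomal RNA processing (chromosome 5, 59633422 to 59646980), stood at 27.5 and 20.1 FPKM in labelled knockdowns, against 7.92 and 11.6 FPKM in labelled controls. Its log2 fold change was 1.21 (SE 0.32; Benjamini-Hochberg adjusted p = 0.0847, limma). DDX27, a large subunit helicase, stood at 4.37 and 3.23 FPKM in labelled knockdowns, against 1.57 and 1.22 FPKM in labelled controls. DDX56 stood at 1.98 and 1.70 FPKM in labelled knockdowns and was listed at 0 and 0.527 FPKM in labelled controls. DDX51, too low to test, was listed at 0.960 and 0.685 FPKM in labelled knockdowns, against 0 in both labelled controls. DDX24, with 37.5 and 37.7 FPKM in labelled knockdowns, against 34.6 and 27.3 FPKM in labelled controls, differed little, with a log2 fold change of 0.28 (SE 0.27). DDX10, DDX49 and DHX33 had log2 fold changes of 0.43, 0.62 and 0.59. DDX27, DDX56, DDX51 and the other helicases outside the naming rule of the methods are named after a look at their values.

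Of 11 splicing helicases 9 were tested, 6 of them on the positive side, and the median log2 fold change was 0.04. DDX5 (p68), a splicing and transcription cofactor (chromosome 12, 14571712 to 14580740), was second in abundance to DDX18. It stood at 191 and 166 FPKM in labelled knockdowns, against 100.2 and 117 FPKM in labelled controls, without overlap. The log2 fold change was 0.71 (SE 0.27; Benjamini-Hochberg adjusted p = 0.157, limma). Its paralog DDX17 (p72) stood at 28.7 and 19.3 FPKM in labelled knockdowns, against 21.5 and 25.0 FPKM in labelled controls, a log2 fold change of 0.02 (SE 0.31) whose sign turned with TPM and without labelled knockdown 1 or labelled control 1. DDX5 was 6.64 and 8.63 times as abundant as DDX17 in labelled knockdowns, against 4.66 and 4.69 times in labelled controls. The ratio was thus higher in both labelled knockdowns, and with 2 libraries a side the smallest p of a two-sided exact permutation test is 0.333.

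Other splicing members differed in either direction, and none passed the threshold. DHX15, DHX8 and DHX35 had larger log2 fold changes than DDX5, at 2.34, 1.20 and 1.08, while 3 of the 9 tested were negative. DDX42, which acts on the U2 particle, stood at 10.5 and 17.98 FPKM in labelled knockdowns, against 23.6 and 24.6 FPKM in labelled controls, a log2 fold change of -0.77 (SE 0.34; Benjamini-Hochberg adjusted p = 0.205, limma). DDX46 (PRP5), which helps U2 bind the branch site, stood at 39.8 and 52.9 FPKM in labelled knockdowns, against 57.5 and 49.7 FPKM in labelled controls, with overlap. DHX8 (PRP22), which releases the spliced message, was low and passed the filter on low values through the labelled knockdowns, at 3.32 and 2.27 FPKM in labelled knockdowns, against 0.622 and 0.645 FPKM in labelled controls. Its log2 fold change was 1.20 (SE 0.29; Benjamini-Hochberg adjusted p = 0.0714, limma). DDX23 and DHX38, of the same cycle, differed by 0.04 and -0.23 on the log2 scale, and the sign of DDX23 turned with TPM and without labelled knockdown 1.

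The messenger RNA export paralogs DDX39A and DDX39B (UAP56, a subunit of the TREX complex) were both higher in the labelled knockdowns without passing the threshold. DDX39A stood at 62.8 and 31.7 FPKM in labelled knockdowns, against 12.3 and 26.6 FPKM in labelled controls, a log2 fold change of 1.25 (SE 0.49). DDX39B stood at 17.3 and 19.8 FPKM in labelled knockdowns, against 5.33 and 9.07 FPKM in labelled controls, a log2 fold change of 1.29 (SE 0.33; Benjamini-Hochberg adjusted p = 0.0785, limma). DDX39A exceeded DDX39B in every library, by 1.60 to 3.63 times. The pore helicase DDX19A stood at 1.68 and 2.86 FPKM in labelled knockdowns, against 3.04 and 2.40 FPKM in labelled controls, and its neighbour DDX19B, 10498 bases away on chromosome 6, averaged under 1 FPKM. These paralogs share long stretches of sequence, so their levels are uncertain.

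DDX3X, which helps ribosomes scan structured leaders (chromosome X, 36988031 to 37005496), stood at 73.2 and 58.3 FPKM in labelled knockdowns, against 39.02 and 55.0 FPKM in labelled controls, a log2 fold change of 0.49 (SE 0.31). DHX29, with a similar role, was far lower, at 2.26 and 1.49 FPKM in labelled knockdowns, against 1.46 and 1.08 FPKM in labelled controls. DDX1, a subunit of the transfer RNA ligase complex, stood at 7.54 and 5.97 FPKM in labelled knockdowns, against 3.05 and 2.09 FPKM in labelled controls, a log2 fold change of 1.12 (SE 0.30). DHX36, which opens G-quadruplexes, stood at 6.72 and 8.95 FPKM in labelled knockdowns, against 4.54 and 3.59 FPKM in labelled controls. Neither passed the threshold (Benjamini-Hochberg adjusted p = 0.0858 and 0.154, limma).

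Of the helicases with an antiviral role, DHX58 and DDX60 were low, and neither passed the threshold. DHX58 (LGP2) was listed at 0.115 and 0.689 FPKM in labelled knockdowns, against 2.17 and 1.53 FPKM in labelled controls, a log2 fold change of -1.05 (SE 0.34; Benjamini-Hochberg adjusted p = 0.117, limma). This was the most negative of the family, but it was -0.29 with the highest transcript row, where DHX57 had -1.29, and -2.23 with a pseudocount of 0.1, and the gene passed the filter on low values through the labelled controls. Its value rested on a single row in each library, and 3 different rows were used over the 4 libraries. DDX60 stood at 1.62 and 1.95 FPKM in labelled knockdowns, against 2.97 and 3.16 FPKM in labelled controls (adjusted p = 0.254 by the same limma test). IFIH1, a sensor of viral RNA with another name, overlapped between the groups at 0.429 and 0.553 FPKM in labelled knockdowns, against 0.473 and 0.620 FPKM in labelled controls. The 4 genes of less defined function had negative fold changes, as did 57.6% of all tested genes, led by DHX57 with 5.54 and 8.90 FPKM in labelled knockdowns, against 12.2 and 14.3 FPKM in labelled controls (log2 fold change -0.82, SE 0.32). The most abundant of them, DHX40, stood at 8.84 and 17.8 FPKM in labelled knockdowns, against 12.8 and 16.2 FPKM in labelled controls, with overlap and with a sign that turned without labelled knockdown 1. DHX32 at -0.23 turned to 0.17 without the same library and to 0.0023 without labelled control 1. DHX30, of mitochondrial ribosome assembly, stood at 1.25 and 1.54 FPKM in labelled knockdowns, against 1.99 and 1.95 FPKM in labelled controls. DDX11, a DNA helicase of sister chromatid cohesion, stood at 1.55 and 1.97 FPKM in labelled knockdowns, against 2.44 and 3.50 FPKM in labelled controls. The 10 genes that averaged under 1 FPKM were DDX28, DDX54, DHX16, DDX19B, DDX41, DDX31, DDX51, DDX25, DHX37 and DHX34, and the last was the lowest of all.

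Several gene sums rested on single transcript rows. In DHX9, XM_021063778.1 was listed at 26.1 and 11.9 FPKM in labelled knockdowns, against 0 and 1.97 FPKM in labelled controls. The row XM_021063782.1 of the same gene ran the other way, at 0.340 and 0.525 FPKM in labelled knockdowns, against 0.783 and 3.86 FPKM in labelled controls. The difference of DHX9 thus lay wholly in the first row. In DDX39B the coding row XM_021098341.1 was listed at 12.8 and 15.7 FPKM in labelled knockdowns, against 0 and 4.00 FPKM in labelled controls. Its noncoding row XR_002345591.1 stood at 4.25 and 3.79 FPKM in labelled knockdowns, against 5.05 and 4.67 FPKM in labelled controls. In DHX35, a helicase found in spliceosomes, XM_005672936.3 stood at 8.08 and 1.88 FPKM in labelled knockdowns, against 0.479 and 0.363 FPKM in labelled controls. Its row XM_001929022.6 stayed between 1.26 and 1.84 FPKM in all libraries.

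**Figure D3:**
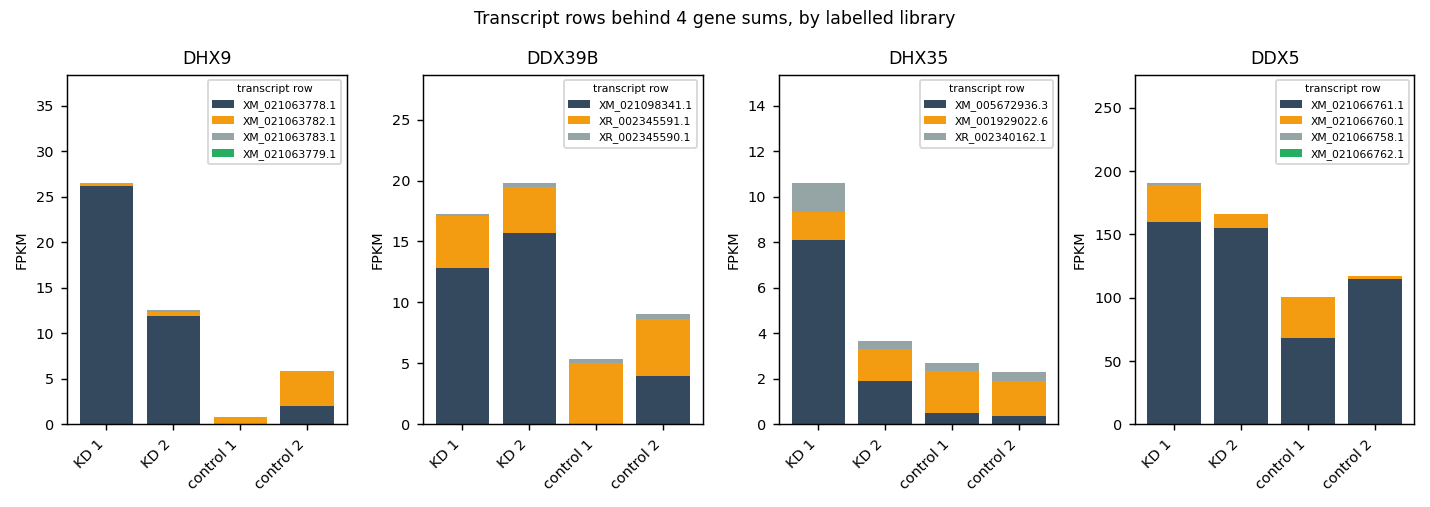
FPKM of each transcript row of DHX9, DDX39B, DHX35 and DDX5, stacked to the gene sum, in labelled knockdowns (KD) 1 and 2 and labelled controls 1 and 2. In DHX9, DDX39B and DHX35 the labelled knockdowns differ from the labelled controls in the dark row, while the orange row is not higher in the labelled knockdowns.

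In other genes the row changed between libraries of one label. DDX20, the SMN complex helicase Gemin3, was carried by XM_021090025.1 in labelled control 1, at 2.87 FPKM, and by XM_021090026.1 in labelled control 2, at 1.85 FPKM, with the other row at 0 each time. DDX11 was carried by XM_021092466.1 in labelled knockdown 1 and labelled control 1, at 1.55 and 2.37 FPKM, and mainly by XM_021092473.1 in labelled knockdown 2 and labelled control 2, at 1.97 and 2.60 FPKM. Tested as separate rows, 46 helicase transcripts had a mean of at least 1 FPKM, and none passed the threshold (limma with Benjamini-Hochberg adjustment over 11230 rows), where 0.623% of all rows were called higher and 0.303% lower. At an unadjusted p under 0.05, 8 helicase rows were higher and 1 was lower, beside 10.2% and 9.88% of all rows. The DHX9 row XM_021063778.1 had a log2 fold change of 3.44 (SE 0.73, adjusted p = 0.154 by the same limma test).

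Genes that work beside these helicases were read from 4 lists, chosen with earlier results of these data known. The shares of all tested genes set beside their counts are thus not an independent comparison. Of 31 nucleolar partners 25 were tested, and 6 rose and none fell, beside 5.11% and 1.46% of all tested genes. On the log2 scale 22 of the 25 lay above 0, beside 42.4% of all tested genes. Their median was 0.59, beside -0.13 over all tested genes, and the most negative was UTP14A at -0.91. MPHOSPH10, of the early small subunit particle, stood at 41.2 and 47.3 FPKM in labelled knockdowns, against 4.04 and 3.11 FPKM in labelled controls, a log2 fold change of 3.31 (SE 0.28; Benjamini-Hochberg adjusted p = 0.0079, limma). NOP2, a methyltransferase of the large subunit, stood at 13.1 and 9.03 FPKM in labelled knockdowns, against 0.558 and 0.986 FPKM in labelled controls. NHP2, of the pseudouridylation particle, was listed at 47.3 and 29.9 FPKM in labelled knockdowns, against 0 and 4.61 FPKM in labelled controls. IMP4 had a log2 fold change of 1.70, near the threshold (Benjamini-Hochberg adjusted p = 0.0473, limma), and FBL and NOP58 had 3.05 and 2.99. FBL, NOP2 and IMP4 averaged 9.98, 11.09 and 4.32 FPKM in labelled knockdowns, against 0.344, 0.772 and 0.678 FPKM in labelled controls, and so passed the filter on low values only through the labelled knockdowns. With the label number as a replicate block only FBL and MPHOSPH10 stayed past the threshold, and NOP2, NHP2, NOP58 and IMP4 missed it (Benjamini-Hochberg adjusted p = 0.0511, 0.0808, 0.0937 and 0.0942, limma). With a pseudocount of 0.1, NHP2, NOP58 and IMP4 missed the threshold (Benjamini-Hochberg adjusted p = 0.116, 0.0642 and 0.0812, limma). Without labelled knockdown 1, and without labelled knockdown 2, limma called none of the 9850 genes, these included, while an unadjusted p under 0.05 was reached by 978 higher with 811 lower genes and by 1413 with 1261.

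Of 20 partners of DDX6 in storage granules 16 were tested, and 2 fell and none rose, beside 1.46% lower and 5.11% higher among all tested genes. On the log2 scale 11 of the 16 lay below 0, as did 57.6% of all tested genes, and their median was -0.48, beside -0.13 over all tested genes. EDC3, which bridges DDX6 to the decapping enzyme, stood at 4.76 and 3.46 FPKM in labelled knockdowns, against 12.5 and 14.2 FPKM in labelled controls, a log2 fold change of -1.50 (SE 0.29; Benjamini-Hochberg adjusted p = 0.0437, limma). ZAR1L, an oocyte RNA-binding protein, stood at 57.3 and 34.97 FPKM in labelled knockdowns, against 210.1 and 165.9 FPKM in labelled controls, and fell by 2.04 on the log2 scale (adjusted p = 0.0318 by the same limma test). With the label number as a replicate block both missed the threshold (Benjamini-Hochberg adjusted p = 0.0908 for EDC3 and 0.0534 for ZAR1L, limma), as they did with the highest transcript row (adjusted p = 0.201 and 0.0896). EDC3 also missed it after median-ratio scaling, with a pseudocount of 0.1 and without any 1 of the 4 libraries, and ZAR1L in every leave-one-out fit but that without labelled control 2. EIF4ENIF1 (4E-T), which links DDX6 to the cap-binding protein, stood at 26.7 and 43.0 FPKM in labelled knockdowns, against 63.7 and 65.6 FPKM in labelled controls. CPEB1, which binds stored messages, stood at 6.10 and 5.23 FPKM in labelled knockdowns, against 12.3 and 13.5 FPKM in labelled controls. Neither of these passed the threshold (Benjamini-Hochberg adjusted p = 0.139 and 0.0776, limma). YBX1 ran the other way, at 48.3 and 35.3 FPKM in labelled knockdowns, against 23.6 and 17.5 FPKM in labelled controls. Its log2 fold change was 0.99 (adjusted p = 0.115 by the same limma test). At an unadjusted p under 0.05 by limma, 1 partner was higher and 4 lower, beside 14.0% and 13.9% of all tested genes.

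Of 19 germ granule genes 12 were tested and none passed the threshold by limma, with 1 higher and 3 lower at an unadjusted p under 0.05, beside 14.0% and 13.9% of all tested genes. Their median was -0.70, with 10 of 12 negative, beside a median of -0.13 and 57.6% negative among all tested genes. PRMT5, 1 of the 10, averaged 0.812 FPKM in labelled knockdowns, against 1.87 FPKM in labelled controls. It thus passed the filter on low values only through the labelled controls. TDRD1, a Tudor protein that binds PIWI proteins, stood at 8.11 and 11.4 FPKM in labelled knockdowns, against 21.98 and 27.02 FPKM in labelled controls. NANOS1, a translational repressor, stood at 21.4 and 18.9 FPKM in labelled knockdowns, against 46.3 and 42.2 FPKM in labelled controls. Both missed the threshold (Benjamini-Hochberg adjusted p = 0.0689 for TDRD1 and 0.0691 for NANOS1, limma), and both lay above DDX4 in every library. The 1 higher gene was ASZ1, at 3.15 and 4.02 FPKM in labelled knockdowns, against 1.93 and 1.46 FPKM in labelled controls. Its log2 fold change was 0.77 (adjusted p = 0.159 by the same limma test). The summed oocyte markers named at the start were lower in the labelled knockdowns, though not each of them: DPPA3 stood at 239 and 486 FPKM in labelled knockdowns, against 413 and 368 FPKM in labelled controls. ZP4 and ZAR1, of which ZAR1L is a relative, likewise overlapped between the groups. The part of these markers in the values above was not tested.

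Of 15 RNA helicases that carry other names, 10 were tested and none passed the threshold by limma, with 2 higher and 1 lower at an unadjusted p under 0.05. These counts lay near the 14.0% and 13.9% of all tested genes, so the values that follow describe single genes. The higher pair were the cap-complex helicases EIF4A1 and EIF4A2. EIF4A2 stood at 172 and 152 FPKM in labelled knockdowns, against 56.9 and 79.3 FPKM in labelled controls, a log2 fold change of 1.26 (Benjamini-Hochberg adjusted p = 0.0643, limma). The lower gene was UPF1, of nonsense-mediated decay, at 1.25 and 1.53 FPKM in labelled knockdowns, against 3.70 and 2.94 FPKM in labelled controls.

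**Figure D4:**
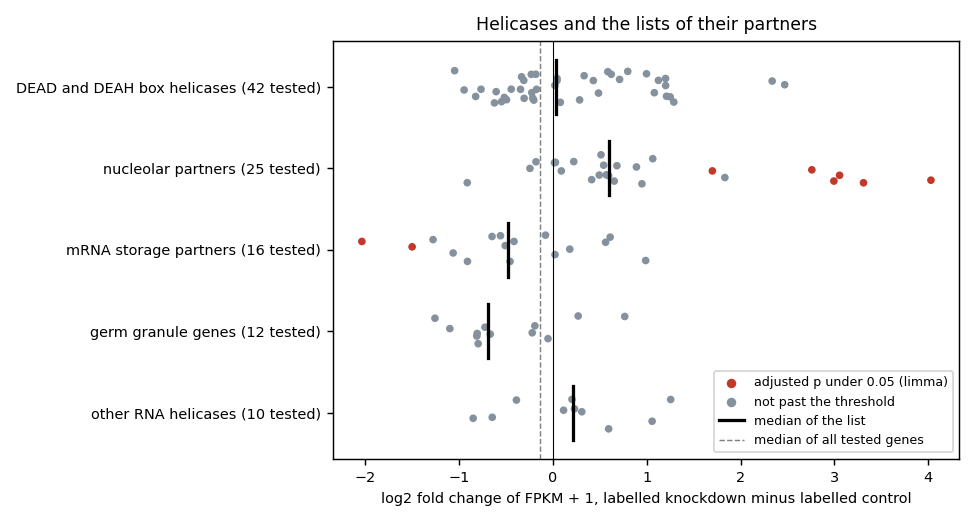
Log2 fold change of FPKM + 1, labelled knockdown minus labelled control, for the tested genes of the helicase family and of 4 lists of related genes; red points passed an adjusted p of 0.05 (limma), black bars are list medians and the dashed line is the median of all tested genes. The helicases are centred near 0 with a median of 0.03 (-0.21 with TPM), the 6 calls among nucleolar partners lie to the right and the 2 among storage partners to the left.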

How the data were processed

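The deposited table lists 35395 transcripts with coverage, FPKM and TPM for each of 4 libraries, per the file headers. Coverage is the deposited mean read depth per base. FPKM was scaled by the authors for length and library size, and TPM by the authors to a common sum. RNA came from an RNeasy kit and a SMARTer library kit, which amplifies cDNA, per the labels' protocols. The tools named are StringTie 2.1.7, Bowtie2 2.3.5 and cutadapt, with the build Sscrofa11.1, per the submitters' processing notes; their settings are not known here. A genome alignment with Bowtie2 would lose reads that span exon junctions.

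Rows were named through RefSeq accessions of Sscrofa11.1 (32816 matched, 4 more by another version), and FPKM was summed per name. All 52 helicases matched, and coordinates are from that table. The 9850 genes averaging 1 FPKM or more were fitted (limma 3.58.1 with a trend, R 4.3.3) on log2(FPKM + 1), two-sided, Benjamini-Hochberg adjusted, threshold 0.05; this scale understates changes of low genes. Read counts were not used, so intervals come from the 2 residual degrees of freedom with limma's pooled variance. The fit was also run on simulated data, with changes added only to well expressed genes and larger than those of most helicases. That run thus cannot show how well smaller changes, or changes of low genes, are found. A value of exactly 0 may be a failed estimate.

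Members, roles and lists were chosen with earlier results of these data known. Named genes are DDX4, DDX6, the 10 most abundant helicases, the 5 most positive and 5 most negative, the most abundant of each role, and partners past the threshold. Partners and other listed genes short of the threshold were named after a look at their values. Alternatives covered pseudocounts, filters, scalings, transcript choice, the trend, the label number as a block and each library left out. Without sequence tables no sequence is shown.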

Additional observations from a re-analysis of the deposited data

How the results depend on the processing

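No helicase was called under any of the alternatives set out in the methods except without labelled control 2, where DHX9 and DHX15 were, so that leave-one-out fits gave 0 to 2 higher and 0 lower helicases. Over all genes the counts were 503 higher and 144 lower. They were 312 and 62 with a pseudocount of 0.1, 0 and 0 when every gene was fitted (1880 and 1925 at an unadjusted p under 0.05, limma), 113 and 33 with the highest transcript row and 70 and 34 with transcript rows, the last added after the data were seen. A minimum mean of 5 FPKM gave 320 higher, TPM 268 lower and median-ratio scaling 78 lower. Leave-one-out fits gave 0 to 479 higher and 0 to 47 lower, with 0 either way without labelled knockdown 1 or without labelled knockdown 2. With the label number as a replicate block 125 genes were higher and 8 lower, and 0 helicases either way. Same-numbered libraries deviated with r = -0.143 over genes, so the numbers were also crossed, a choice made after the data were seen, which gave 2 helicases higher and 0 lower, and 611 and 119 genes; 2 pairs cannot show whether the numbers pair the embryos. Of 442 values of 32 named genes over 14 alternatives, 9 turned sign. DDX17 became -0.26 with TPM and ranged from -0.25 to 0.30 in leave-one-out fits. DDX4 became -0.12 with TPM and -0.23 with the highest transcript row, and ranged from -0.19 to 0.35. DDX43 ranged from -0.71 to 0.0153 and DHX40 from -0.65 to 0.28. For 52 values, all of partner genes, the call was lost. Tested helicases outside the naming rule turned sign too, namely DDX19A, DDX20, DDX23, DDX53 and DHX32. DDX19A went from -0.20 to 0.06 without labelled knockdown 1, and DDX20 from -0.44 to 0.53 with the highest transcript row. DDX53 went from 0.04 to -0.16 with TPM. With 2 libraries a group, differences of the size of most helicases could not be told from library spread.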
